A study of Mus musculus with 4 samples.

Results

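The genes described here are the ligands, receptors and targets of transforming growth factor beta (TGF-beta) in the liver of obese mice fed 7-ketocholesterol (7KC), an oxidised cholesterol. They were chosen by name, with earlier results of these data known. They are 3 ligands (Tgfb1, Tgfb2, Tgfb3), the latent ligand binding protein Ltbp1, the activator Thbs1, 3 receptors (Tgfbr1, Tgfbr2, Tgfbr3), the activin subunit gene Inhba and the target Ctgf. All 10 were among the 24346 gene symbols in the files, and all 10 were above 0 in every library.

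RNA was sequenced from the liver of male ob/ob mice, which lack leptin and are obese, in 4 groups. CD was a chow-type diet with 5% corn oil and 10% sucrose, and WD was a Western-type diet with 20% cocoa butter and 34% sucrose. CD+7KC and WD+7KC were the same diets with 0.01% 7KC added. Every diet, those of the control groups included, held 1% cholesterol, mice were 6 weeks old when feeding began and ate the diets for 4 weeks, and no lean mice were among the samples. Each group had 1 library, and the sources used here do not say whether a library was 1 mouse or a pool. No difference below has a replicate check, so no p-value is given, and no order of levels can be set against a spread between mice.

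TGF-beta is secreted in a latent complex with its own propeptide, which latent TGF-beta binding proteins anchor in the matrix. Integrins, proteases and thrombospondin 1 release the active ligand. The ligand joins the type 2 and type 1 receptors, which phosphorylate Smad2 and Smad3, and these enter the nucleus with Smad4. In liver the pathway is best known for turning stellate cells into matrix-producing myofibroblasts, with macrophages, endothelial cells and platelets among the sources of ligand.

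Levels are given in FPKM, fragments scaled to transcript length and to the mapped total, as deposited. A log2 fold change was computed after adding 0.1 FPKM, and a gene past 2-fold had a log2 fold change above 1 or below -1. A counting interval is the exact (Clopper-Pearson) 95% interval of the plain FPKM ratio, on the log2 scale. It was drawn from read numbers estimated with the steps between low FPKM values, and it covers counting error between 2 libraries only. The estimated depth was 10940000 fragments (CD), 11000000 (CD+7KC), 9400000 (WD) and 12110000 (WD+7KC). FPKM values summed to 715605, 696062, 699534 and 602059 in the same order. Scaling the libraries to equal sums moved the all-gene median of the log2 fold change from 0.002 to 0.206 in WD+7KC compared to WD and from 0.003 to 0.199 in WD+7KC compared to CD+7KC. In the former pair 7908 of 15753 genes were higher as deposited and 11502 with equal sums, and counts with equal sums are to be read against this.

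The hepatocyte markers summed to 51080 FPKM (CD), 43270 (CD+7KC), 52870 (WD) and 41810 (WD+7KC) and were thus abundant in every library labelled as liver. Markers of macrophages and Kupffer cells summed to 86.24, 164.3, 175.7 and 363.7 FPKM in the same order. All 8 of them were higher in WD+7KC than in WD and all 8 were higher in CD+7KC than in CD. Markers of sinusoidal endothelial cells summed to 58.03, 85.02, 46.1 and 131.1 FPKM, and 7 of 7 were past 2-fold in WD+7KC compared to WD. Markers of stellate cells and myofibroblasts summed to 105.9, 98.66, 111.4 and 108.3 FPKM, most of it from Ecm1 and Colec11. Among the less abundant ones, the log2 fold change in CD+7KC compared to CD was -0.72 for Des, -0.60 for Hand2 and -0.49 for Pdgfrb. It was -0.265 for Ngfr, -0.165 for Reln and 0.128 for Lrat, and the median of all 8 markers was -0.215. In WD compared to CD, 6 of the 8 were higher and 2 lower (median 0.162), with 0.74 for Lrat. In whole liver, a higher number of cells of one type and more RNA per cell cannot be told apart.

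Tgfb1, the ligand of broadest expression, was the most abundant ligand in all 4 libraries and the only member past 2-fold in WD+7KC compared to WD. Its gene lies on chr7:25687002-25705077 of GRCm38, on the plus strand. Its level was 3.03 FPKM (CD), 3.06 (CD+7KC), 3.97 (WD) and 9.38 (WD+7KC). The library of WD+7KC thus stood above the other 3, which lay within 1 FPKM of each other. With 7KC under WD, the level was 2.37-fold higher, with a log2 fold change of 1.22 and a counting interval from 0.85 to 1.63. With 7KC under CD, the log2 fold change was 0.02, with a counting interval from -0.48 to 0.55. The 7KC comparison under WD therefore exceeded that under CD by 1.20 on the log2 scale, a difference that could not be tested. WD+7KC exceeded CD+7KC by 3.06-fold, whereas WD compared to CD gave a log2 fold change of 0.38 and a counting interval, from -0.09 to 0.91, that held 0. Macrophage and endothelial markers were also highest in WD+7KC, and their part in the level of Tgfb1 was not tested.

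The stretch before the start of Tgfb1 is shown because this gene carried the main difference under WD. It is the 250 bases at chr7:25686752-25687001 (plus strand, RefSeq promoter on GRCm38.p6, GC content 75.2%), printed 5′ to 3′. Capitals would mark a searched motif, and none is present.
Tgfb1 promoter: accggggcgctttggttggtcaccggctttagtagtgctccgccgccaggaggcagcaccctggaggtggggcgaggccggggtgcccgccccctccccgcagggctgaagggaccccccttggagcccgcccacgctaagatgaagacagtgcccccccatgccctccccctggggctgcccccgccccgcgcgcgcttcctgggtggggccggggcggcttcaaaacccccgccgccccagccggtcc

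The search covered the Smad-binding letters CAGACA, the longer form AGCCAGACA, the palindrome GTCTAGAC, the AP-1 letters TGACTCA and the TEAD letters GGAATG, on both strands of the 250 bases before each start. CAGACA is contained in AGCCAGACA. Of 32851 promoters, 17.1% held CAGACA, 0.301% held AGCCAGACA, 0.167% held GTCTAGAC, 4.46% held TGACTCA and 12.6% held GGAATG. RefSeq promoters were matched for 6 of the 10 members (Tgfb1, Tgfb2, Ltbp1, Tgfbr1, Tgfbr2, Inhba), with 8 windows in all. CAGACA was found in 3 windows, those of Tgfb2, of the second start of Tgfbr1 and of the second start of Ltbp1. The other letters were found in none of the 8.

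Tgfb2 and Tgfb3, the other two ligands, were less abundant than Tgfb1 in every library and below 1 FPKM. Tgfb3 was listed at 0.57 FPKM (CD), 0.28 (CD+7KC), 0.46 (WD) and 0.93 (WD+7KC). These levels rest on about 19.9, 9.9, 13.9 and 35.8 reads. The gene was lowest in CD+7KC and highest in WD+7KC, and the log2 fold change by 7KC was -0.80 under CD and 0.87 under WD. The counting interval under CD, from -2.27 to 0.15, held 0, and that under WD, from 0.07 to 2.0, did not. Between the diets with 7KC, the log2 fold change of 1.42 in WD+7KC compared to CD+7KC was past 2-fold, with a counting interval from 0.67 to 2.89. With the libraries scaled to equal sums, Tgfb3 was also past 2-fold in WD+7KC compared to WD, at 1.06.

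Tgfb2 was listed at 0.30 FPKM (CD), 0.24 (CD+7KC), 0.23 (WD) and 0.20 (WD+7KC), from between 10.8 and 16.2 estimated reads. The log2 fold change by 7KC was -0.24 under CD and -0.15 under WD, with counting intervals from -1.48 to 0.84 and from -1.55 to 1.08. A difference of Tgfb2 was thus not detectable at this depth, and the interval under WD reached past 2-fold on both sides. Tgfb2 lies on chr1:186622792-186705989 and Tgfb3 on chr12:86056745-86079041 (GRCm38, both minus strand). Transcripts on the opposite strand share exon bases with each, and whether reads were counted by strand is not given in the sources used here.

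The 3 ligands together reached 3.90 FPKM (CD), 3.59 (CD+7KC), 4.66 (WD) and 10.51 (WD+7KC). Tgfb1 made up 77.6%, 85.4%, 85.0% and 89.3% of these sums.

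**Figure D1:**
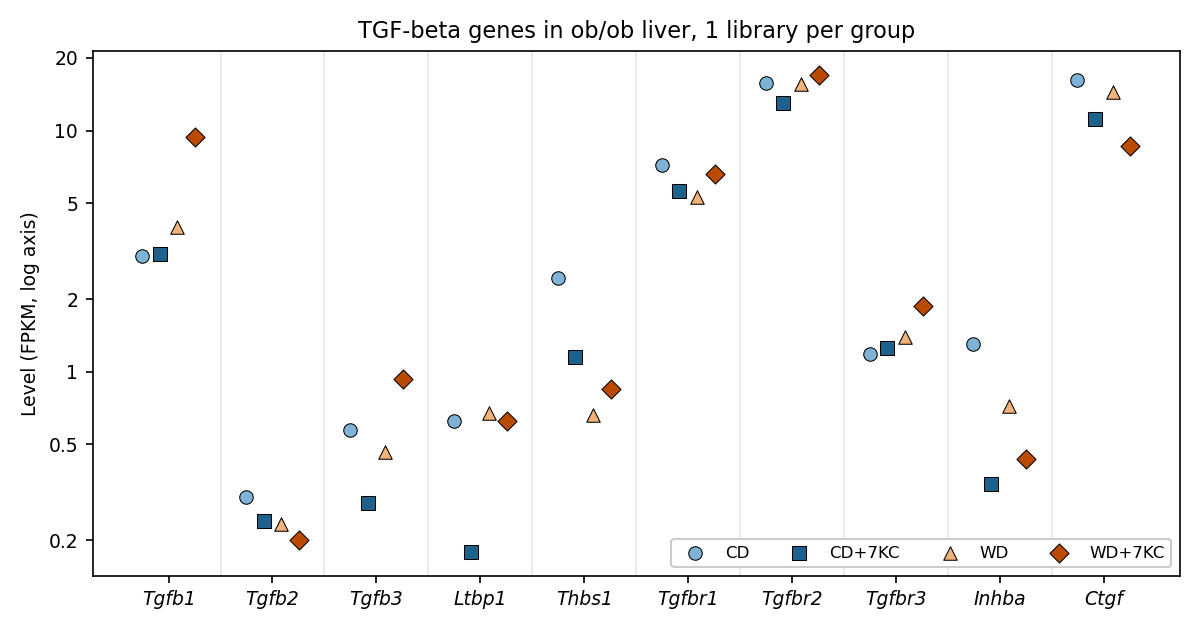
Points give the level (FPKM, log axis) of each of the 10 genes in the libraries CD, CD+7KC, WD and WD+7KC, 1 library per group and therefore no error bars. Tgfb1 stands out in WD+7KC at 9.38 FPKM, Ltbp1 in CD+7KC at 0.18, and Thbs1 and Inhba in CD at 2.45 and 1.30, while the points of Tgfbr1 and Tgfbr2 lie close together.

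Ltbp1, which anchors latent TGF-beta in the matrix, was low in 1 library, that of CD+7KC. Its level was 0.62 FPKM (CD), 0.18 (CD+7KC), 0.67 (WD) and 0.62 (WD+7KC), from about 44.0, 12.7, 41.0 and 48.9 reads. It was 3.47-fold lower in CD+7KC than in CD, with a log2 fold change of -1.37, and 3.49-fold lower in CD+7KC than in WD+7KC. In WD+7KC compared to WD the log2 fold change was -0.10, which changed sign to 0.09 with equal sums. No counting interval was drawn because the gene has 2 RefSeq mRNAs.

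The gene lies on chr17:75005568-75392512 (GRCm38, plus strand), and both of its RefSeq starts are shown because the gene passed 2-fold under CD. Each line gives 250 bases on the plus strand of GRCm38.p6, with CAGACA or its reverse complement TGTCTG in capitals. The first is chr17:75005279-75005528, with a GC content of 56.8%, and the second is chr17:75178531-75178780, with 50.8%. The second holds TGTCTG at -149 and at -98, counted back from the start, and the first holds none of the searched letters. The files give 1 value per gene, so the use of either start was not measured.
Ltbp1 promoter, first start: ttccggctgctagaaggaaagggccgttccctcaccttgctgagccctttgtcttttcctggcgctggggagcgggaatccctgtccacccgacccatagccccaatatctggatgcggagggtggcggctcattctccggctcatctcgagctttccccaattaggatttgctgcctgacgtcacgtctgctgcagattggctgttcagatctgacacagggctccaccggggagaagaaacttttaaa
Ltbp1 promoter, second start: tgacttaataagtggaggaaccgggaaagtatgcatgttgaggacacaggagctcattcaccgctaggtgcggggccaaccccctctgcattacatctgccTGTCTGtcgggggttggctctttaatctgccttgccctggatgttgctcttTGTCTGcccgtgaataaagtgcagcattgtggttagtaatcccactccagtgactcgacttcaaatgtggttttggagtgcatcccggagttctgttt

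Thbs1, thrombospondin 1, which binds the latent complex and can activate TGF-beta, was highest in CD. Its level was 2.45 FPKM (CD), 1.15 (CD+7KC), 0.66 (WD) and 0.85 (WD+7KC), from about 151.1, 71.2, 35.0 and 58.1 reads. Relative to CD, it was 2.13-fold lower in CD+7KC, with a log2 fold change of -1.03 and a counting interval from -1.52 to -0.68. With equal sums this value was -0.99 and with upper-quartile scaling -0.998, both just inside the 2-fold threshold. In WD compared to CD it was 3.71-fold lower, with a log2 fold change of -1.74 and a counting interval from -2.46 to -1.35. Relative to WD, the log2 fold change in WD+7KC was 0.32 and the interval, from -0.27 to 1.01, held 0. Platelets carry thrombospondin 1. The 6 platelet markers summed to 4.89 FPKM (CD), 3.21 (CD+7KC), 6.77 (WD) and 3.65 (WD+7KC), and Pf4 made up much of it, at 3.82, 0.95, 3.88 and 2.59 FPKM. In CD+7KC compared to CD 4 of them were higher and 1 was lower (median 0.59), and in WD+7KC compared to WD all 6 were lower (median -0.95). Their part in the level of Thbs1 was not tested. Gp1bb and Gp6 were listed at 0 in 2 and 3 of the libraries, respectively. The gene lies on chr2:118111876-118127133 (GRCm38, plus strand), and a transcript on the opposite strand shares exon bases with it.

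Tgfbr1 and Tgfbr2 had the narrowest ranges of the 10 members. Tgfbr2, the type 2 receptor that binds the ligand first, was at 15.8 FPKM (CD), 13.02 (CD+7KC), 15.7 (WD) and 17.1 (WD+7KC). Its highest level was 1.31 times its lowest. Tgfbr1, the type 1 receptor whose kinase phosphorylates Smad2 and Smad3, was at 7.22, 5.59, 5.31 and 6.59 FPKM in the same order, a 1.36-fold range. Tgfbr3, betaglycan, which presents ligand to the type 2 receptor, was at 1.18, 1.25, 1.39 and 1.86 FPKM, a 1.58-fold range. No receptor was past 2-fold in any of the 4 comparisons.

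Under 7KC the type 1 and type 2 receptors had opposite signs in the 2 diets. The log2 fold change of Tgfbr1 was -0.36 in CD+7KC compared to CD and 0.31 in WD+7KC compared to WD, and that of Tgfbr2 was -0.28 and 0.12. Tgfbr3 exceeded its WD level in WD+7KC, with a log2 fold change of 0.40 and a counting interval from 0.01 to 0.85. In CD+7KC compared to CD its log2 fold change was 0.08, and the interval from -0.39 to 0.55 held 0. The ratio of Tgfbr2 to Tgfbr1 was 2.19 (CD), 2.33 (CD+7KC), 2.95 (WD) and 2.59 (WD+7KC). Tgfbr2 and Tgfbr1 have 2 and 3 RefSeq mRNAs, so no interval was drawn for them. On GRCm38, Tgfbr1 lies on chr4:47353222-47414931 (plus strand), Tgfbr2 on chr9:116084293-116175360 and Tgfbr3 on chr5:107106570-107289629 (both minus strand).

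Inhba, which encodes the beta A subunit of activins and inhibins, ligands that act through Smad2 and Smad3 with receptors of their own, was highest in CD. Its level was 1.30 FPKM (CD), 0.34 (CD+7KC), 0.72 (WD) and 0.43 (WD+7KC), and the read numbers were small, about 18.9, 5.0, 9.0 and 7.0. Under CD it was 3.81-fold lower with 7KC, with a log2 fold change of -1.67 and a counting interval from -3.71 to -0.46. In WD+7KC compared to WD the log2 fold change was -0.61, and the interval from -2.39 to 0.87 held 0. The direction was thus lower with 7KC under both diets, while a difference under WD was not detectable at this depth. The gene lies on chr13:16011851-16031621 (GRCm38, plus strand). The 250 bases before its start, chr13:16011601-16011850 on the plus strand of GRCm38.p6, are shown beside those of Tgfb1 because the pair passed 2-fold in opposite directions and in different diets. They have a GC content of 43.2% and hold none of the searched letters.
Inhba promoter: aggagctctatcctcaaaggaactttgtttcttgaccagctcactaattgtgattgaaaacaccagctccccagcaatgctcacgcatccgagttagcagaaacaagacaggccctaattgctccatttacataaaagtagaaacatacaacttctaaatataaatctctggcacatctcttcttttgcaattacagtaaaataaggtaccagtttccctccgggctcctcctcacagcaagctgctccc

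Ctgf (Ccn2), a matricellular protein gene and a widely used target of TGF-beta and of the YAP coactivator, was lower with 7KC under both diets. Its level was 16.1 FPKM (CD), 11.2 (CD+7KC), 14.5 (WD) and 8.59 (WD+7KC). Both libraries with 7KC lay below both libraries without it. Under WD the log2 fold change with 7KC was -0.74, with a counting interval from -1.0 to -0.5, and in CD+7KC compared to CD it was -0.53, with an interval from -0.76 to -0.3. With equal sums the value under WD was -0.53 and its interval ran from -0.79 to -0.28. Neither difference was past 2-fold. Ctgf was the only member for which the 7KC comparison under WD lay below that under CD. The difference was -0.215 on the log2 scale and -0.04 with equal sums, and it was not tested. Tgfb1 and Ctgf had opposite signs under WD. The gene lies on chr10:24595442-24598683 (GRCm38, plus strand), and a transcript on the opposite strand shares exon bases with it.

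By level, Ctgf and Tgfbr2 were the first pair in CD, CD+7KC and WD, followed by Tgfbr1 and Tgfb1. In WD+7KC Tgfbr2 stayed first, while Tgfb1, at 9.38 FPKM, came above Ctgf at 8.59 and Tgfbr1 at 6.59. The remaining members reached 2.45 FPKM at most.

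**Figure D2:**
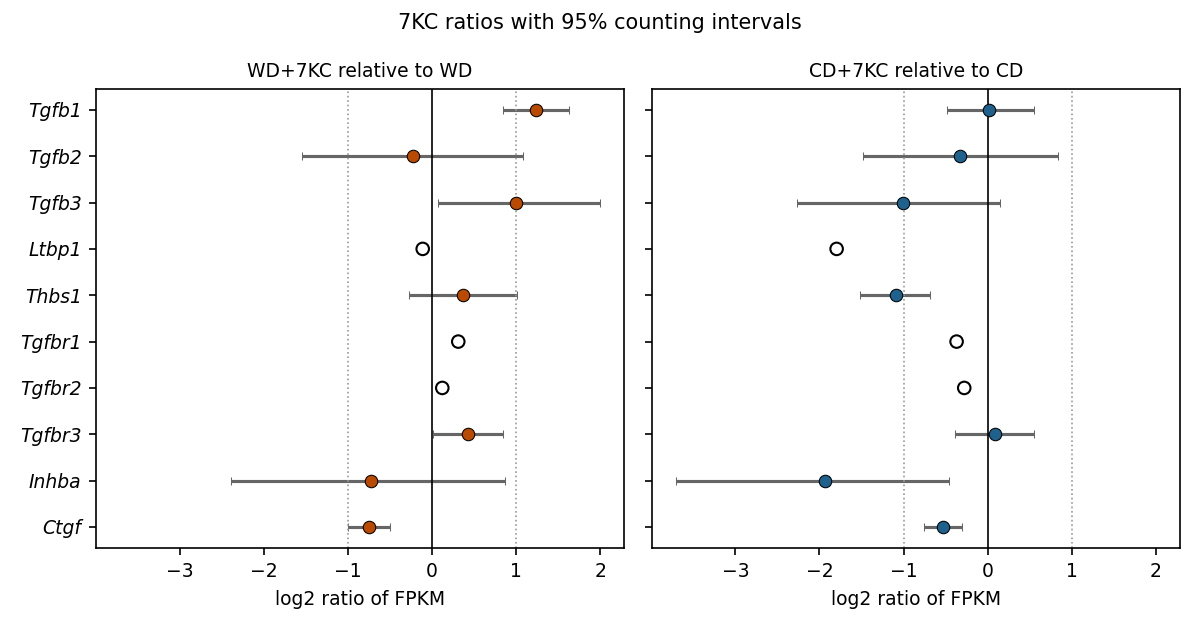
Points give the log2 ratio of FPKM, without a pseudocount, in WD+7KC relative to WD (left) and in CD+7KC relative to CD (right). Bars are exact 95% counting intervals and not replicate error, open circles mark the genes with several mRNAs and no interval, and dotted lines mark 2-fold. Under WD only the point of Tgfb1, at 1.24, lies clear of the upper line, with Tgfb3 on it at 1.0, and under CD the points of Ltbp1, Thbs1 and Inhba lie beyond the lower line and that of Tgfb3, at -1.005, on it.

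Counted together, 1 of the 10 members was above 2-fold and 0 were below it in WD+7KC compared to WD. Among 15753 genes tested, 6.21% were above and 2.79% were below, and among the 10686 genes averaging 1 FPKM or more the shares were 2.71% and 0.767%. In CD+7KC compared to CD, 0 members were above and 3 were below (Ltbp1, Thbs1 and Inhba). Of 15684 genes tested, 3.84% were above and 2.91% were below, and of the genes averaging 1 FPKM or more, 1.18% and 0.861%. In WD compared to CD, 0 members were above and 1 was below (Thbs1), against 5.31% and 4.38% of all genes. In WD+7KC compared to CD+7KC, 3 were above (Tgfb1, Tgfb3 and Ltbp1) and 0 below, against 8.01% and 4.61%. These comparisons share libraries, so their counts are not independent. With 10 genes, 1 member more or less moves a share by 10 percentage points.

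The median log2 fold change of the members was 0.21 in WD+7KC compared to WD, with 6 higher and 4 lower (7 and 3 with equal sums, median 0.43), where the median of all genes was 0.002 (0.206 with equal sums). With 7KC under CD, it was -0.45, with 2 higher and 8 lower, where the median of all genes was -0.001. The 7KC comparison under WD lay above that under CD for 9 of the 10 members, also with equal sums. Among the 16408 genes above 0 in at least 1 library, 49.5% had a difference of this sign, and 63.8% with equal sums. Of the 10 members, 5 had their highest level in CD, 4 in WD+7KC and 1 in WD. Among the same 16408 genes, 24.6%, 28.9% and 23.6% were highest in these libraries. The lowest level of 4 members (Tgfb3, Ltbp1, Tgfbr2 and Inhba) was in CD+7KC, against 23.3% of the 16408 genes.

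The other genes of the pathway were described from 5 lists with 72 genes in all, none of them a member. The lists were chosen with earlier results of these data known. In WD+7KC compared to WD, 3 of the 69 genes tested over the 5 lists (4.35%) were above 2-fold and 0 were below. The shares of all genes were 6.21% and 2.79%. In CD+7KC compared to CD, 3 of 67 were above (4.48%) and 4 below (5.97%), against 3.84% and 2.91% of all genes. Keeping only list genes that reached 1 FPKM in either library left 49 in this pair, with 0 above and 3 below. The same filter left 53 in WD+7KC compared to WD, with 3 above and 0 below. For all genes the nearest background is an average of 1 FPKM or more, a different filter. Its shares above and below were 1.18% and 0.861% under CD, and 2.71% and 0.767% under WD. In WD compared to CD 1 of 69 was above (1.45%) and 3 were below (4.35%), against 5.31% and 4.38%. In WD+7KC compared to CD+7KC 10 of 67 were above (14.9%) and 1 was below (1.49%), against 8.01% and 4.61%. In WD+7KC compared to WD 46 of the 69 were higher, where 7908 of 15753 genes were. With equal sums 61 of the 69 were higher, where 11502 of 15753 genes were. In CD+7KC compared to CD 18 of the 67 were higher, where 7738 of 15684 genes were, and 19 with equal sums, where 9027 were. The 19 genes of latency and activation hold the other binding proteins, integrins and proteases. In WD+7KC compared to WD, 12 of the 18 tested were higher (median 0.33), and 1 was past 2-fold. That gene was Nrros, which holds latent TGF-beta on myeloid cells, at 1.16 FPKM (CD), 1.67 (CD+7KC), 1.10 (WD) and 3.57 (WD+7KC). Its log2 fold change was 1.61 under WD and 0.49 under CD. Mmp2, a gelatinase that can release TGF-beta, was the lowest of those averaging 1 FPKM or more, with a log2 fold change of -0.21 under WD and -0.98 under CD. In CD+7KC compared to CD, 7 of 17 were higher and 10 lower, and the 2 past 2-fold, Mmp9 and Thbs3, reached 0.335 FPKM at most. Mmp9 and Thbs3, as well as Acvr2b, Snai1, Col1a1 and Cyr61 below, were named after their values had been seen.

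Among the accessory and related receptors, 5 of the 8 tested were higher in WD+7KC than in WD (median 0.04), and none was past 2-fold. Eng, endoglin, an endothelial co-receptor, was at 15.1 FPKM (CD), 15.3 (CD+7KC), 12.7 (WD) and 25.4 (WD+7KC). Its log2 fold change of 0.998 lay just inside the threshold and was 1.04 with upper-quartile scaling and 1.21 with equal sums. It stood beside endothelial markers that were higher in the same library. Their part in it was not tested. Acvr1b, a type 1 activin receptor, had the lowest value of this list, at -0.30. Relative to CD, the values in CD+7KC ran from 0.28 for Acvrl1, an endothelial type 1 receptor, to -0.59 for Nrp1 among genes averaging 1 FPKM or more. Acvr2b, a type 2 activin receptor at 0.786 FPKM or less in every library, was past 2-fold at 1.37.

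Of the 7 activins and their binding proteins, 3 exceeded WD in WD+7KC and 4 were lower (median -0.03, and 0.19 with equal sums, where that of all genes was 0.206). Inhbb, the beta B subunit, was past 2-fold at 1.76, with a counting interval from 1.21 to 2.82, and its level was 1.68 FPKM (CD), 1.27 (CD+7KC), 0.44 (WD) and 1.74 (WD+7KC). The library that stood apart for Inhbb was thus WD, which was low, and WD+7KC was close to CD. Inhbc, a subunit made mainly by hepatocytes, was the lowest of those averaging 1 FPKM or more, at -0.18. Of the 6 tested in CD+7KC compared to CD, 5 were lower. Fst, follistatin, which binds and blocks activins, was past 2-fold at -1.11 and had 0.95 FPKM (CD), 0.38 (CD+7KC), 2.35 (WD) and 2.37 (WD+7KC). Fstl1 had the highest value of this list under CD among genes averaging 1 FPKM or more, at -0.17.

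Of the 13 Smads and their regulators, none was past 2-fold in either 7KC comparison. With 7KC under WD, 7 were higher and 6 lower as deposited (median 0.02). With equal sums 13 were higher and 0 lower, where 11502 of 15753 genes were higher. The median with equal sums was 0.24, where that of all genes was 0.206. As deposited, the highest of the 13 was Tgif1, a Smad corepressor, at 0.80 (1.02 with equal sums). The lowest was Ppm1a, a phosphatase of Smad2 and Smad3, at -0.21. Under CD 11 of 13 were lower with 7KC, with equal sums as well, and the median was -0.21. Smad3, which carries the signal to the nucleus, was at 3.80 FPKM (CD), 1.89 (CD+7KC), 2.40 (WD) and 2.89 (WD+7KC). It was the lowest of the list under CD, with a log2 fold change of -0.97 and a counting interval from -1.37 to -0.66. Zfyve9, an anchor that presents Smads to the receptor, was the highest, at 0.16.

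Of the 23 targets, 19 were higher in WD+7KC than in WD (median 0.29), where 7908 of 15753 genes were higher. In CD+7KC compared to CD, 19 were lower (median -0.39), where 7946 of 15684 genes were lower. The 7KC comparison under WD lay above that under CD for 22 of the 23, and for all 23 with equal sums. The shares among the 16408 genes above 0 were 49.5% and 63.8%. Ctgf, which was counted with the members, did not follow the targets in this. Its difference was -0.215 as deposited but only -0.04 with equal sums, and it was not tested. In WD+7KC compared to WD, 1 target, Snai1, was past 2-fold at 1.01 (0.69 FPKM in WD and 1.49 in WD+7KC). It rests on about 9.2 and 25.6 reads, with a counting interval from 0.03 to 2.44. Among those averaging 1 FPKM or more, the highest was Timp1, an inhibitor of matrix metalloproteinases, at 0.80 (1.01 with equal sums). Its reads were about 18.9 in WD and 42.9 in WD+7KC, and its counting interval ran from 0.0 to 1.67. The lowest of them was Dcn at -0.08. Timp1 was at 4.14 FPKM (CD), 1.46 (CD+7KC), 2.95 (WD) and 5.19 (WD+7KC).

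In CD+7KC compared to CD, 3 targets were below 2-fold, Col1a1 and Timp1 among them. Cyr61, a relative of Ctgf, was highest in CD, as Thbs1 was, at 14.8 FPKM, and at 7.39, 7.70 and 9.63 in CD+7KC, WD and WD+7KC. Col1a1, a chain of type I collagen, had a log2 fold change of -1.25 and another pattern, with 8.23 FPKM (CD), 3.398 (CD+7KC), 7.86 (WD) and 9.52 (WD+7KC), and the low library was CD+7KC. Postn, periostin, had the highest value under CD, at 0.35.

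**Figure D3:**
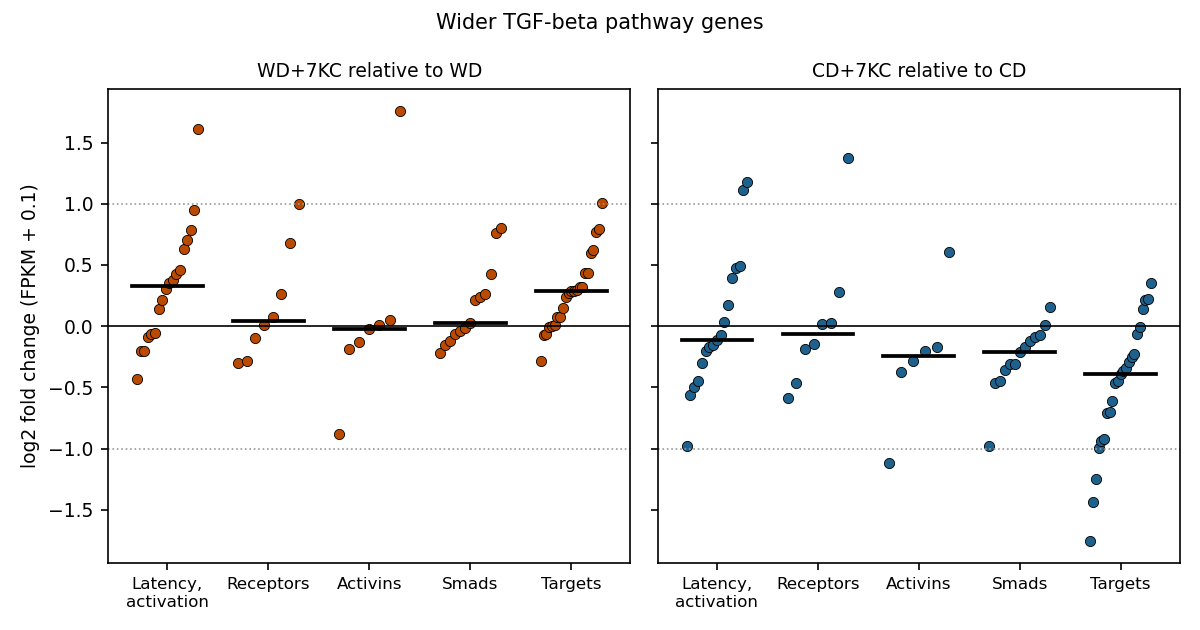
Each point is the log2 fold change (0.1 FPKM added) of 1 gene of the lists latency and activation, receptors, activins, Smads and targets, in order of value within a list, in WD+7KC relative to WD (left) and CD+7KC relative to CD (right). Thick bars are list medians, and dotted lines mark 2-fold. The median of the targets is 0.29 on the left and -0.39 on the right.

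Stellate and myofibroblast markers stood beside the targets as follows. In CD+7KC compared to CD, 2 of 8 were higher and 6 lower (median -0.22), and in WD+7KC compared to WD the same numbers gave a median of -0.16 (0.05 with equal sums). Their summed level, most of it from Ecm1 and Colec11, was 105.9 FPKM in CD and lowest in CD+7KC, at 98.66. Ecm1 was lowest in CD+7KC, at 51.45 FPKM, and Colec11 in WD+7KC, at 31.93. Ltbp1 and Col1a1 were lowest in CD+7KC too, by a wider margin than this sum. The part of stellate cells and myofibroblasts in the results was not tested. The cholangiocyte list summed to 102.5 FPKM (CD), 46.45 (CD+7KC), 126.1 (WD) and 185.9 (WD+7KC). Nearly all of this was Spp1, at 98.7, 43.7, 123.7 and 183.0 FPKM, while Krt7 reached 0.657 at most. Of the further lists, T cell markers summed to between 0.4861 and 1.39 FPKM, B cell markers to between 1.33 and 3.26 and neutrophil markers to between 14.24 and 21.12. Mesothelial markers reached 1.03 FPKM at most, and Plin1, which defines fat cells, was at 0 in all 4 libraries, although Fabp4 brought the fat list to between 66.62 and 142.7. Erythroid markers summed to between 54.55 and 160.0 FPKM.

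**Figure D4:**
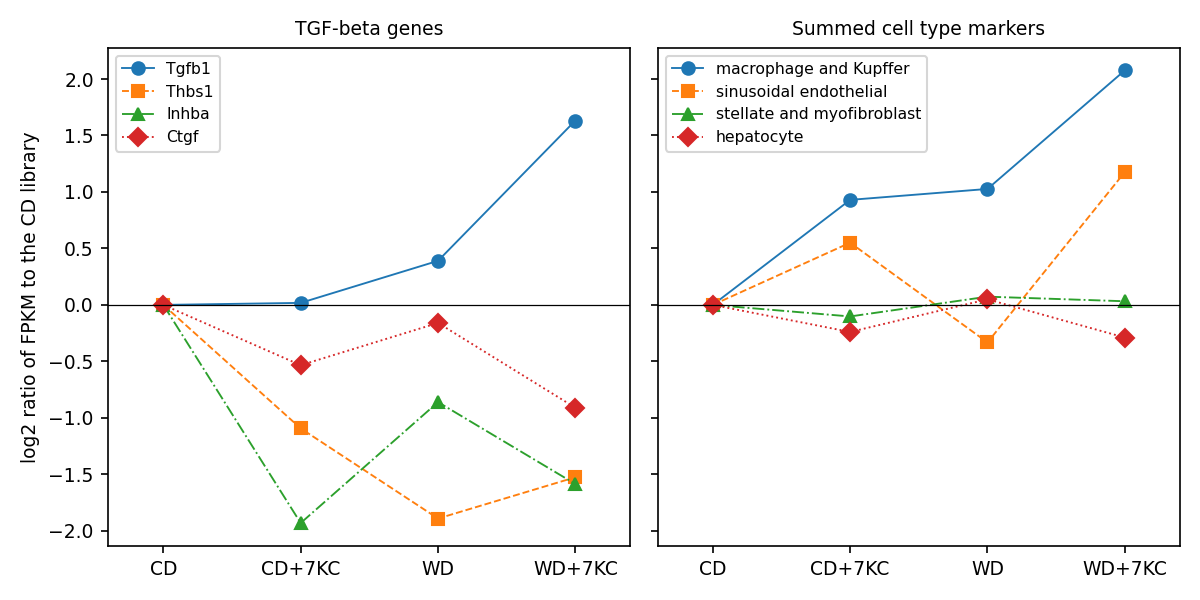
The left panel gives the log2 ratio of FPKM to the CD library for Tgfb1, Thbs1, Inhba and Ctgf, and the right panel gives the same for the summed markers of macrophages, sinusoidal endothelium, stellate cells and hepatocytes, 1 library per group. Lines only join the points of a gene or list. Tgfb1 and the macrophage and endothelial sums have their highest point in WD+7KC. In CD+7KC the sums are 164.3 and 85.02 FPKM and Tgfb1 is 3.06 FPKM.

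The genes closest to 2 of the members in profile were found among 9917 genes at 1 FPKM or more in every library. The measure was the largest gap, over the 4 libraries, between log2 FPKM profiles centred on their own means. For Tgfb1, whose log2 levels spanned 1.63, the nearest was Ms4a6c, with a gap of 0.017 and levels of 2.97 FPKM (CD), 3.06 (CD+7KC), 3.90 (WD) and 9.41 (WD+7KC). Dok2 followed at 0.065 and 4632428N05Rik at 0.09, and 5 genes lay within 0.1. For Ctgf, whose log2 levels spanned 0.91, the nearest were Csrnp1 at 0.076, Dand5 at 0.081 and Chic2 at 0.11, and 2 genes lay within 0.1. Csrnp1 was at 3.88, 2.93, 3.54 and 2.14 FPKM in the same order of libraries. With 4 libraries such likeness is a description only.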

How the data were processed

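Liver RNA of 4 groups (CD, CD+7KC, WD, WD+7KC; 1 library each, grouped by the labels) was analysed. The authors made stranded mRNA libraries, sequenced single-end reads of 75 bases, mapped them to mm10 (GRCm38) and deposited FPKM values, 1 for each symbol in a library. The submitters' processing notes name TopHat2 2.0.13, Bowtie2 2.2.3, SAMtools 0.1.19 and Cufflinks 2.2.1. The annotation and options are not given in the sources used here. Because FPKM is scaled to the mapped total of a library, a few very abundant genes can shift all others.

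The members and lists were chosen with earlier results of these data known. Log2 fold changes were computed from FPKM plus 0.1 for genes above 0 in at least 1 of the 2 libraries compared. With 1 library per group there was no test. Depth was estimated from the steps of low FPKM values, for which 14788 genes with 1 RefSeq mRNA were eligible (length minus 200 bases). The fit used 1490 to 1619 low values per library. Between 70.8% and 72.1% of low values came within 0.1 of a whole read. At 1 FPKM this gave 9.4 to 12.1 reads per kilobase, and the intervals cover counting error only.

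Named genes were all 10 members, the highest and lowest of each list in both 7KC comparisons among those averaging 1 FPKM or more, and the 3 genes nearest in profile to the 2 members of widest range among those at 1 FPKM or more in every library. The alternatives were pseudocounts of 1, 0.01 and none, a filter of 1 FPKM, equal sums (TPM), upper-quartile and median-ratio scaling, sums without the 20 most abundant genes, and thresholds of 0.58 and 2. Positions came from GENCODE vM21, and promoters from RefSeq (GRCm38.p6). The code was tested on simulated data. Python 3.11.15, numpy 2.4.6, pandas 2.3.3, scipy 1.17.1 and matplotlib 3.10.9 were used. The qRT-PCR and tissue measurements were not analysed here. Some results that the rule for named genes would give are not reported here.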

Additional observations from a re-analysis of the deposited data

Results flagged for a closer look

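For 4 members the 7KC comparison had opposite signs under the 2 diets, with 1 library per group, so that the difference was not tested. The share of all genes with opposite signs was not computed, so this count has no background. The log2 fold change under WD minus that under CD was 1.67 for Tgfb3, 1.35 for Thbs1, 0.67 for Tgfbr1 and 0.40 for Tgfbr2. Each of the 4 was lower with 7KC under CD and higher with 7KC under WD. The counting interval held 0 for Tgfb3 under CD (-2.27 to 0.15) and for Thbs1 under WD (-0.27 to 1.01). With equal sums Ltbp1 had opposite signs as well. For Tgfb3, Tgfbr1 and Tgfbr2 the sign of the diet comparison also differed between mice without and with 7KC. That of Tgfbr2 without 7KC was -0.01 and changed sign to 0.02 with equal sums. For Inhba the sign differed in the diet comparison alone, with a difference of 1.05 that was not tested either and that rests on 5.0 to 18.9 reads per library.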

How the results depend on the processing

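No paired analysis was possible because each group has 1 library, and for the same reason no alternative leaves out a library. Of 305 values of members under the alternatives, 4 changed sign, all of them near 0 (Ltbp1 in WD+7KC compared to WD, and Tgfbr2 in WD compared to CD, with equal sums or without the 20 most abundant genes). Of 879 values of named genes, 755 stayed within tolerance, 124 moved and none past the threshold was reversed.

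Counts past 2-fold are given for the members (1, 3, 1 and 3 as reported) and for the wider lists (3, 7, 4 and 11) in WD+7KC compared to WD, CD+7KC to CD, WD to CD and WD+7KC to CD+7KC. With a pseudocount of 1 the members past 2-fold were 0 in CD+7KC compared to CD and 1 in WD+7KC compared to CD+7KC, the wider counts were 1, 3, 1 and 6, the member medians were -0.30 in CD+7KC compared to CD and -0.089 in WD compared to CD, and the wider median in WD+7KC compared to WD was 0.067. With 0.01 the wider counts were 7, 13 and 10 in the first 3 comparisons, and with none 5 and 11 in the first pair. With none, 4 members were past 2-fold in CD+7KC compared to CD, where Tgfb3 was at -1.005. With at least 1 FPKM, 1 member remained in WD+7KC compared to CD+7KC and 3 wider genes in CD+7KC compared to CD. With equal sums 2 members and 8 wider genes were past 2-fold in WD+7KC compared to WD and 17 wider genes in WD+7KC compared to CD+7KC, and in these 2 comparisons the member medians were 0.43 and 0.52 and the wider medians 0.40 and 0.58. Without the 20 most abundant genes the same comparison with WD gave 2 members and 5 wider genes, the member medians were 0.39 and 0.51, and the wider medians 0.38 and 0.57. Upper-quartile scaling gave 2 members in CD+7KC compared to CD, where Thbs1 was at -0.998, and put Eng past 2-fold in WD+7KC compared to WD, at 1.04. With equal sums Thbs1 was also inside the threshold in CD+7KC compared to CD, at -0.991. Median-ratio scaling left the counts of members and wider genes at the reported numbers. A threshold of 0.58 gave 4 members in WD+7KC compared to WD and 2 in WD compared to CD, and wider counts of 16, 17, 15 and 26. A threshold of 2 gave 0 members in all 4 and wider counts of 0, 0, 0 and 1.

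Depth limits Tgfb2, Tgfb3 and Inhba most, with 36 reads or fewer in every library, and the spread between mice was not measured.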
